A study of Arabidopsis thaliana with 30 samples.

Results

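The loci described here are stretches of the *Arabidopsis thaliana* genome that a transcript assembly marked as transcribed during germination and that carry no gene name. They were chosen as every row of the deposited gene counts table whose identifier begins with XLOC, which gave 881 rows of 38217, beside 37336 annotated genes. RNA came from Col-0 wild type, from seeds of a single batch of plants. The samples were H (frozen as soon as the seed was harvested) and 0 h (dry seed after a ripening period in the dark), followed by imbibed seed. The ripening period was given as 14 days in one label and 15 days in another, and the seed of every time point after 0 h had it as well. Imbibed seed was first kept on MS medium with sucrose in the dark at 4 °C, termed stratification, for 1, 12 or 48 h (1 h S, 12 h S, 48 h S). The last 5 time points, written SL, were seed stratified for 48 h and then held at 22 °C in continuous light for 1, 6, 12, 24 or 48 h. Each of the 10 time points had 3 libraries, described by the study as biological replicates. Libraries carried no strand information. Their labels state a selection of polyadenylated RNA but also name a total RNA kit, as do the study's methods, so how far RNA without a poly(A) tail was captured is unclear.

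Plant genomes are transcribed outside their annotated genes. Such transcripts include long non-coding RNAs, precursors of small RNAs, short coding genes that annotation missed, and extensions of a known transcript beyond its annotated end. A germinating seed passes from a stored, desiccated state through imbibition to a green seedling, and an assembly of its RNA can mark loci that an annotation built on other tissues lacks. An assembled locus is an interval in which reads pile up. On its own it states neither the strand nor the ends of a transcript.

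Sequences of 6 loci that lie between annotated genes are given because their levels, described further on, were concentrated in dry seed, at 12 h S or at 1 h SL, or because the study used them as examples. They were read from the RefSeq sequence of the TAIR10.1 assembly, whose nuclear chromosomes match those of the counts table, and each is written 5′ to 3′ on the strand that holds its longest open reading frame. At most 300 bases around that frame are printed, and capitals mark the frame, with its start codon and stop codon. XLOC_009941 (chr2:9719822-9720121, minus strand) lay highest in dry seed, XLOC_005521 (chr1:7311845-7312144, minus strand) and XLOC_032532 (chr5:17524016-17524315, minus strand) at 12 h S and XLOC_030028 (chr5:26415282-26415581, plus strand) at 1 h SL. XLOC_000109 (chr1:641822-642121, minus strand) and XLOC_008600 (chr2:9895-10135, plus strand) are examples from the study.
XLOC_009941: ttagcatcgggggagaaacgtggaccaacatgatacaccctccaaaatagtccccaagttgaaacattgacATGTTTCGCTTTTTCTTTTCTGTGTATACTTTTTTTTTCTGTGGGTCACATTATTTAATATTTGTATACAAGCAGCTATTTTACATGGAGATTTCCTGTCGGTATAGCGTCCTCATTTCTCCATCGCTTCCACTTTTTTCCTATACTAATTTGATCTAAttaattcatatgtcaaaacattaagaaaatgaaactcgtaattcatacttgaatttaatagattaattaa
XLOC_005521: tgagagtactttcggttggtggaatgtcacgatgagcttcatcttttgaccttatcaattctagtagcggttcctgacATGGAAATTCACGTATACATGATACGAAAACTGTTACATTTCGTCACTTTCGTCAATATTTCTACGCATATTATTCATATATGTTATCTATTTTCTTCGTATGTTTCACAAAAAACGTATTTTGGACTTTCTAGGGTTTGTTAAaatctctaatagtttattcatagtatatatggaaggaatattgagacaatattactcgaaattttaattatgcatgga
XLOC_032532: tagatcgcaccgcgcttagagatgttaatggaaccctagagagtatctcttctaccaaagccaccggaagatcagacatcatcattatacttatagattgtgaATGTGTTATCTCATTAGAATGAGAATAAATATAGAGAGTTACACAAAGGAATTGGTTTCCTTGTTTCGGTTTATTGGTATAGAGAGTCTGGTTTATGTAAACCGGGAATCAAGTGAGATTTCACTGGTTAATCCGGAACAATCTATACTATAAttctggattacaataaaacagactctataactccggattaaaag
XLOC_030028: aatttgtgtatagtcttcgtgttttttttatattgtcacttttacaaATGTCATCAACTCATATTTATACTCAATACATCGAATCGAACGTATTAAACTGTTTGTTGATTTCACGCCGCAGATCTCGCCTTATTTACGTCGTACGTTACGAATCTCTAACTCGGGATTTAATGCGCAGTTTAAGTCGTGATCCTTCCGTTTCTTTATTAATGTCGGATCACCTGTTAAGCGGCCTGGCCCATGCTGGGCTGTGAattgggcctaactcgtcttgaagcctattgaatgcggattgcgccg
XLOC_000109: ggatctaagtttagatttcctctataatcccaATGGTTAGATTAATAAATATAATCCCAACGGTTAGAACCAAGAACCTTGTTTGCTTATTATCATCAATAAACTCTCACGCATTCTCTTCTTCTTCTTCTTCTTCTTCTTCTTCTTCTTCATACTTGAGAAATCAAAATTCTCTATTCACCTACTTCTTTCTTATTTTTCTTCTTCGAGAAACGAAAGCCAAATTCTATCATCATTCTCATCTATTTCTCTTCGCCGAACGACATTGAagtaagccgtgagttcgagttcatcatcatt
XLOC_008600: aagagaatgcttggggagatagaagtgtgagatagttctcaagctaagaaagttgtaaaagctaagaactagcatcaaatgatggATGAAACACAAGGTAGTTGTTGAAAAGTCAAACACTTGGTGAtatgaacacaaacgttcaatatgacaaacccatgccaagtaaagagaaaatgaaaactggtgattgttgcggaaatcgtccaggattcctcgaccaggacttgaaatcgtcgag
These frames held 52 codons in XLOC_009941, 47 in XLOC_005521, 50 in XLOC_032532, 68 in XLOC_030028, 78 in XLOC_000109 and 13 in XLOC_008600. The frame is a property of the letters alone, since no strand or protein was measured.

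The 881 rows described 644 distinct intervals, none of which overlapped another. Each row was 1 interval, and every row was listed on the plus strand, so the strand column carried no information on the direction of transcription. Of the intervals, 219 were listed more than once, under different identifiers (204 of them 2 times and 13 of them 3 times), and these took up 456 rows. All 456 rows held 0 reads in all 30 libraries. What produced these zeros was not tested, and a zero in these rows is not read as a lack of RNA. Of the 425 rows listed once, 423 held reads, which are called the measured loci here, and XLOC_005747 and XLOC_021457 held none. The count of loci with at least 10 reads over all libraries was 409, and 371 had at least 100.

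The smallest library, 1 h S replicate 2, held 8234345 counted reads and the largest, 48 h SL replicate 3, held 76294780, and 12 h SL replicate 3 was the next lowest with 12038278. All loci together accounted for 0.303% to 1.05% of library reads, with the highest share in 12 h SL replicate 3. The summed level of 7 seed storage protein genes, which mark the stored seed, was 205 to 228 CPM (counts per 1e+06 reads) at 48 h SL and 181084 to 197734 CPM at H. The summed level of 6 photosynthesis genes, among them RBCS1A and LHCA1, which mark the green seedling, was 6075 to 6912 CPM at 48 h SL and 43.1 to 49.2 CPM at H, with 1 of the 6 at 0 reads in every library. At 1 h S the libraries differed among themselves, with 68.9, 706 and 238 CPM of the photosynthesis genes in replicates 1, 2 and 3.

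By position, 390 rows lay between annotated genes of the same table without touching the span of any, 325 overlapped a gene in part and 166 lay inside one. Among the measured loci these counts were 181, 155 and 87. The measured loci between genes are referred to as intergenic loci, and 159 of them were on the nuclear chromosomes, 19 in the mitochondrial genome and 3 in the chloroplast genome (XLOC_033992, XLOC_034027 and XLOC_034040). Intergenic loci were short, with a median length of 419 bases and a range of 202 to 1473 bases, whereas loci that overlapped a gene in part had a median of 936 bases and reached 16639 bases. The intergenic loci stood close to genes. Their distance to the nearest annotated gene had a median of 336 bases and ran from 12 to 2853 bases, and 27 lay nearer than 100 bases, 92 at 100 to 499, 31 at 500 to 999 and 31 at 1000 or more. With respect to the listed strand of that gene, 100 lay after its end and 81 before its start.

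**Figure D1:**
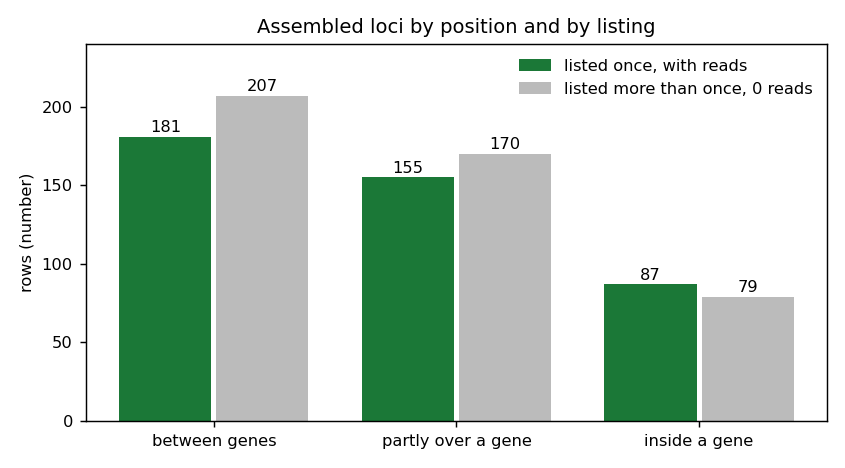
Number of rows of the counts table (vertical axis) in each position class, as bars for loci listed once with reads (green) and for rows of intervals listed more than once, which held 0 reads (grey). Repeated rows made up 207 of the 390 rows between genes, 170 of the 325 partly over a gene and 79 of the 166 inside a gene.

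For loci that touch a gene, the reads were not separate from those of the gene. In 111 pairs an annotated gene with at least 10 reads lay wholly within a measured locus, and in 110 of them the locus had at least as many reads as the gene in all 30 libraries (the exception lay in XLOC_021938). The genes within a locus held a median of 45.8% of its reads, with a range of 0.0234% to 99.9% over 72 loci. Conversely, 28 measured loci lay entirely in the exons of a single gene, and 27 of these had no more reads than the gene in any library. For 6 of the 28 the locus held at least 90% of the reads of the gene. The longest locus, XLOC_033778 (chr5:26057622-26074260, 16639 bases), spanned 6 annotated genes, among them TGA1 (AT5G65210), which encodes a bZIP transcription factor, and a gene of the ribosomal protein L29 family (AT5G65220) that held 74.2% of its reads. The correlation of XLOC_033778 with TGA1 over the 10 time point means was 0.17. XLOC_021235 (chr4:1516160-1531856) and XLOC_021853 (chr4:6420250-6434822) were the next longest with 15697 and 14573 bases. The levels of the 242 measured loci that overlap a gene therefore report on that gene as well, and the values that follow centre on intergenic loci.

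Levels were low for most intergenic loci. They are given as CPM scaled with TMM factors, which correct the library size for differences in composition. The mean over the 30 libraries had a median of 0.181 CPM for the 181 intergenic loci, 1.28 CPM for the 155 that overlap a gene in part, 0.429 CPM for the 87 inside a gene and 2.22 CPM for 31623 annotated genes with reads. Per kilobase of length, the same medians were 0.581, 1.46, 0.829 and 1.40 CPM per kb. Only 42 intergenic loci had a mean of 1 CPM or more. Of the reads in all loci, 58.0% fell in 10 of them, and intergenic loci held 4.59%.

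The 10 loci with the highest mean level all overlapped annotated genes. XLOC_012442 (chr2:7837101-7839552), which covers a gene of the ribosomal protein L2 family (AT2G18020), led with a mean of 814 CPM, with 172 ± 15.2 CPM at 0 h, 1020 ± 183 at 48 h S, 1772 ± 398 at 12 h SL and 558 ± 39.5 at 48 h SL (SD, n = 3 each). It was followed by XLOC_033778 (492 CPM), XLOC_012443 (251 CPM), XLOC_018807 (231 CPM), XLOC_024494 over the gene of vacuolar ATP synthase subunit E1 (AT4G11150, 213 CPM) and XLOC_002970 (194 CPM). XLOC_020170 (185 CPM), XLOC_008354 (182 CPM), XLOC_008372 over ACR3 (AT1G76990, 181 CPM) and XLOC_021174 over the chloroplast import receptor gene TOC159 (AT4G02510) and AT4G02520 (178 CPM) completed them. XLOC_012443 contained a peptidylprolyl isomerase gene (AT2G18040) that held 90.3% of its reads and a peptide methionine sulfoxide reductase gene (AT2G18030) that held 8.37%. The correlation of XLOC_021174 with TOC159 over the time point means was 0.21. Their means differed over time in different ways. XLOC_008372 had 62.2 ± 2.11 CPM at 48 h SL and 475 ± 11.2 at H, whereas XLOC_018807 had 752 ± 63.1 CPM at 48 h SL and 11.5 ± 0.999 at H.

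Absence from the annotation of the counts table did not mean absence from every annotation. Of the 162 intergenic loci on sequences shared with the RefSeq reference, 46 overlapped an exon that RefSeq lists, 39 of them over at least 50% of their length and 18 over all of it. These exons belonged to 45 RefSeq genes, none of which had a row in the counts table, and 43 of the 45 were classed as misc_RNA, a class for transcripts with no assigned product. The remaining pair were microRNA genes. XLOC_013689 (chr2:16339696-16341079) overlapped MIR160a (AT2G39175), whose microRNA targets auxin response factors, and XLOC_031391 (chr5:8527468-8528453) overlapped MIR169b (AT5G24825), of a family that targets NF-YA transcription factors. The microRNA gene covered only 6.14% of XLOC_013689 and 18.4% of XLOC_031391, so the levels are those of the loci and not of the precursors alone. XLOC_013689 had 4.78 ± 0.333 CPM at 48 h S and 0.283 ± 0.115 CPM at 0 h, and XLOC_031391 had 0.535 ± 0.114 CPM at 48 h SL and 0.0215 ± 0.00377 CPM at 48 h S. The mean level had a median of 0.375 CPM in the 46 loci with a RefSeq exon and 0.177 CPM in the other 116. Of these 116, 86 also had no protein match and no near-identical copy in the genome.

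The level of most measured loci depended on the time point. Of the 423 measured loci, 378 had a time effect in the DESeq2 likelihood ratio test of time as a factor (adjusted p below 0.01), where 73.8% of all 32045 features tested were called. The share was 83.4% of intergenic loci (151 of 181), 95.5% of loci partly over a gene (148 of 155), 90.8% of loci inside a gene (79 of 87) and 73.6% of annotated genes with reads. With the edgeR quasi-likelihood F-test, which was run on 375 loci that passed its filter on low counts, 373 were called, beside 23036 of all 23222 features. Because a locus with few reads passes that filter only where it is high at some time point, the count of 373 is given to compare the tools alone. The threshold of 0.01 is not exact for the likelihood ratio test. In simulated counts of 23222 features, of which few were changed, 17.5% of the features it called had been simulated without a change. That share rises as fewer features change, so its size does not carry over to data in which 73.8% were called. How many of the loci called here are false was not estimated.

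Intergenic loci had their highest means in the middle of the time course. Of the 151 with a time effect, 50 (33.1%) had their highest mean at 48 h S and 115 (76.2%) at one of the time points from 12 h S to 24 h SL, against 9.99% and 48.7% of the annotated genes with a time effect. Only 7 intergenic loci (4.64%) were highest at H and 8 (5.30%) at 48 h SL, the ends of the course, where 18.3% and 26.2% of the annotated genes were highest. Loci that overlap a gene lay between both groups, with 51 of 227 (22.5%) highest at 48 h S. The assembly drew on reads of 48 h SL, 48 h S and dry seed, so a locus transcribed at another time point alone had less chance to be assembled, and what this contributed to the shares was not tested. Of those time points, 0 h held the highest mean of 19 intergenic loci (12.6%), beside 5.32% of annotated genes. The shares at the ends depended on the scaling. With library sizes alone in place of TMM, 5 intergenic loci (3.31%) were highest at H and 8 (5.30%) at 48 h SL, beside 9.40% and 35.4% of annotated genes, and 11 (7.28%) were highest at 0 h, beside 3.27%. The share at 48 h S was then 31.8% of intergenic loci and 8.52% of annotated genes. The share at 48 h S was lower in the 39 loci with a time effect that overlap a RefSeq exon (6 loci, 15.4%) than in the 102 without one (44 loci, 43.1%), as a description with no test. Among all 378 loci with a time effect the count at 48 h S was 101, and it was 74 without 1 h SL replicate 2, the library of its time point with the lowest share of reads in intergenic loci.

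**Figure D2:**
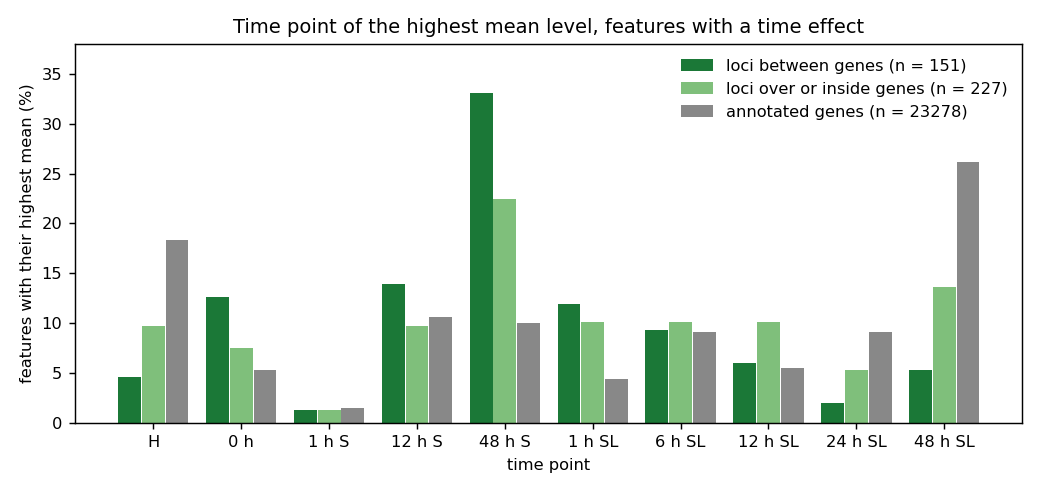
Share of features with a time effect (vertical axis, %) whose highest mean CPM fell at each time point (horizontal axis), for 151 intergenic loci (dark green), 227 loci over or inside genes (light green) and 23278 annotated genes (grey). Intergenic loci were gathered at 48 h S (33.1%), and annotated genes at H (18.3%, or 9.40% with library sizes alone) and 48 h SL (26.2%, or 35.4%).

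The share of a library that fell in intergenic loci was highest at 48 h S and 1 h SL. Without XLOC_016232, a locus described further on, it was 0.00877% ± 0.000995 at H, 0.0160% ± 0.00119 at 0 h, 0.0140% ± 0.00216 at 1 h S, 0.0224% ± 0.000911 at 12 h S, 0.0409% ± 0.00644 at 48 h S and 0.0428% ± 0.0167 at 1 h SL (SD, n = 3 each). It then was 0.0276% ± 0.00212 at 6 h SL, 0.0196% ± 0.00290 at 12 h SL, 0.00959% ± 0.00262 at 24 h SL and 0.00456% ± 0.000462 at 48 h SL. The libraries of 48 h S, with 0.0356% to 0.0481%, lay above every library of H, 0 h, 1 h S, 12 h S and of 6 h SL onwards, and overlapped those of 1 h SL, with 0.0237% to 0.0540%. These are shares of counted reads, in which abundant loci such as XLOC_021232 and XLOC_015394, described further on, weigh heavily. Shares without those loci were not computed. Fewer cells of a type and less RNA per cell cannot be told apart in whole seeds or seedlings.

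Consecutive time points were compared with the edgeR quasi-likelihood test (adjusted p below 0.01, adjusted over all 23222 features tested), in which 375 loci and 142 intergenic loci were tested. At 0 h against H, 13 loci were higher and 11 lower (2.56% and 6.26% of all features). This count depended on the libraries fitted together, since with the 6 libraries of H and 0 h alone 65 loci were higher and 29 lower of 183 tested, where 9687 of 17729 features were called. At 1 h S against 0 h, 1 was higher and 3 were lower (1.24% and 2.04%). At 12 h S against 1 h S, 71 were higher and 15 lower (18.1% and 17.7%), and at 48 h S against 12 h S, 140 were higher and 60 lower (27.0% and 24.8%). At 1 h SL against 48 h S, 5 were higher and 11 lower (4.43% and 3.66%), a split that turned to 10 higher and 6 lower without 1 h SL replicate 2 and to 4 and 3 without 48 h S replicate 3. From then on lower loci outnumbered higher ones at each step. At 6 h SL against 1 h SL, 44 were higher and 92 lower (17.3% and 16.8%), at 12 h SL against 6 h SL 17 and 59 (10.7% and 12.9%), at 24 h SL against 12 h SL 24 and 145 (25.9% and 22.0%), and at 48 h SL against 24 h SL 37 and 81 (21.9% and 19.0%).

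For the intergenic loci on their own, rises prevailed at 12 h S and 48 h S and falls in light from 6 h SL. The 142 tested passed the filter on low counts, which loci with few reads pass only where they are high at some time point. Without it, at 48 h S against 12 h S 55 of 181 were higher and 25 lower (6112 and 5781 of all 32046 features). At 24 h SL against 12 h SL, 7 were then higher and 49 lower (5924 and 4910 of all features). The values that follow are with the filter. At 12 h S against 1 h S, 32 of 142 were higher and 4 lower (XLOC_005236, XLOC_006704, XLOC_008600 and XLOC_020134), and at 48 h S against 12 h S, 53 were higher and 25 lower. At 6 h SL against 1 h SL, 13 were higher and 50 lower, and at 24 h SL against 12 h SL, 7 were higher and 50 lower, which is 35.2% lower where the share over all features was 22.0%. At 12 h SL against 6 h SL 3 were higher and 18 lower, and at 48 h SL against 24 h SL 8 were higher and 30 lower. In the step from 48 h S to the first hour of light, 3 intergenic loci were higher (XLOC_007357, XLOC_008600 and XLOC_030028) and 3 were lower (XLOC_011804, XLOC_023410 and XLOC_030169). The intergenic loci called at 0 h against H were XLOC_020538, with 0.450 ± 0.0492 CPM at 0 h and 0.0309 ± 0.0345 CPM at H, and XLOC_024786, with 5.28 ± 0.192 CPM at 0 h and 2.35 ± 0.153 CPM at H. With the 6 libraries alone 20 intergenic loci were higher at 0 h and 1 was lower, of 51 tested. At 1 h S against 0 h none was called with edgeR or with the DESeq2 Wald test. Of the 375 loci of all classes tested with edgeR, 48 had an unadjusted p below 0.05. The same share over all features was not computed, so this count is not read as a result about the loci. Counts at several steps depended on single libraries. At 0 h against H the count of 24 became 7 to 12 on leaving out any 1 of the 6 libraries of both time points. At 1 h S against 0 h the calls, XLOC_014275 higher and XLOC_014092, XLOC_021235 and XLOC_023101 lower, came to 0 without 1 h S replicate 2 or any of the 0 h libraries, to 10 without 1 h S replicate 1 and to 7 without 1 h S replicate 3. At 1 h SL against 48 h S the 16 calls were 8 without 48 h S replicate 1 and 7 without 48 h S replicate 3. At 6 h SL against 1 h SL the intergenic split of 13 higher and 50 lower was 10 and 31 without 6 h SL replicate 2. At 12 h SL against 6 h SL, without 12 h SL replicate 2, 4 intergenic loci were higher and 7 lower, and 15 and 38 of all loci. At 24 h SL against 12 h SL the 24 loci called higher were 15 without 12 h SL replicate 1 and 15 without 12 h SL replicate 2.

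**Figure D3:**
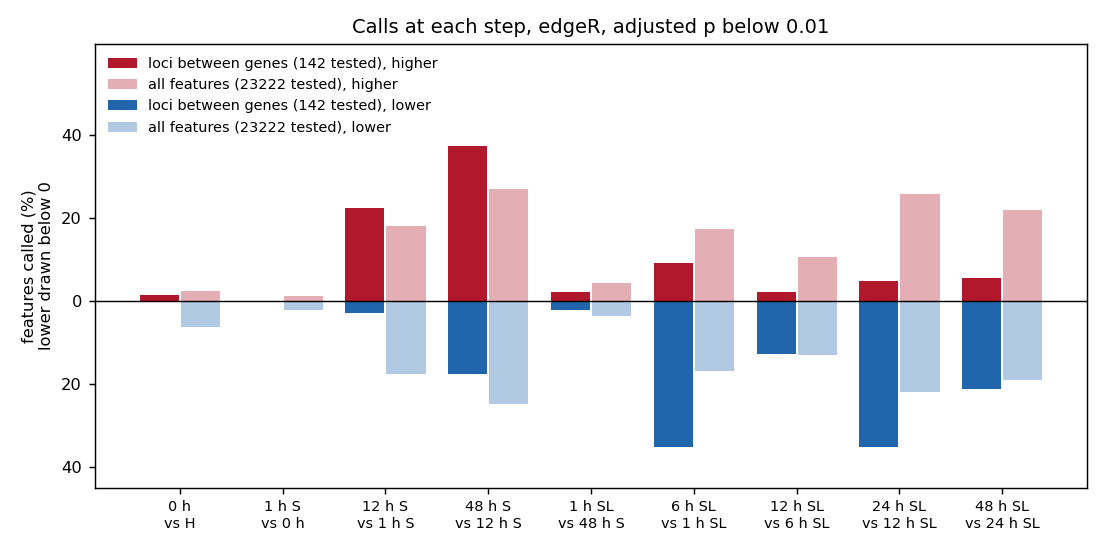
Percentage of features called higher (red, above 0) or lower (blue, below 0) at each consecutive step, for 142 intergenic loci tested (dark) beside all 23222 features tested (pale). At 48 h S against 12 h S 37.3% of intergenic loci were higher and 17.6% lower, and at 24 h SL against 12 h SL 4.93% were higher and 35.2% lower. The loci shown passed the filter on low counts, which loci with few reads pass only where they are high at some time point.

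Over longer intervals, 182 loci were higher and 54 lower at 48 h S against 0 h (33.2% and 28.5% of all features), of which 77 and 20 were intergenic. At 48 h SL against 48 h S, 74 loci were higher and 251 lower (44.2% and 36.9% of all features), of which 18 and 112 were intergenic, out of 142 tested. At 48 h SL against 0 h, 95 loci were higher and 140 lower (45.8% and 33.3% of all features), of which 22 and 60 were intergenic. The median log2 fold change of all features in this last comparison was 0.44, and it was 1.66 with library sizes in place of TMM, under which 143 loci were higher and 95 lower. Whether higher or lower loci were the majority of calls at 48 h SL against 0 h thus depended on the scaling. Among intergenic loci the lower ones stayed the majority, with 32 higher and 44 lower with library sizes alone. For all loci the split with library sizes alone was 19 higher and 3 lower at 0 h against H, and 7 higher and 8 lower at 1 h SL against 48 h S. The longer intervals join the time points whose reads built the assembly, and what this contributed to the splits was not tested. Without the filter on low counts, 22 of 181 intergenic loci were higher and 120 lower at 48 h SL against 48 h S (10686 and 8704 of all 32046 features). At 48 h S against 0 h these counts were 81 and 21 (7521 and 6740 of all features), and at 48 h SL against 0 h 23 and 68 (10722 and 7961).

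Single loci are named where their rise or fall was the largest of a comparison, among called loci with at least 10 reads in every library of the higher time point and no overlap of libraries, or where the ratio of their highest mean to the next was the largest for a time point. XLOC_006532 (chr1:15926218-15926421, 204 bases) was the locus most particular to freshly harvested seed by that ratio. It lay 254 bases before the start of AT1G42470, a gene of the Patched family, and wholly within exons of a RefSeq misc_RNA gene (AT1G09455). Its 0 h libraries, the next highest, had 0.638, 0.957 and 1.04 CPM, and its H libraries had 1.79, 1.95 and 2.05 CPM, so that the groups did not overlap. From 48 h S onwards its mean was 0.209 CPM or less. AT1G42470 was also highest at H, with 87.0 ± 2.30 CPM, beside 48.9 ± 1.30 CPM at 0 h. The correlation of the locus with that gene over the 10 time point means was 0.89.

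XLOC_009941 (chr2:9719784-9720307, 524 bases) had the largest fall at 48 h SL against 0 h. It stood 189 bases before the start of ACS4 (AT2G22810), which encodes 1-aminocyclopropane-1-carboxylate synthase, an enzyme of ethylene synthesis. At 48 h SL its libraries had 0, 0.00943 and 0.0163 CPM, against 31.6, 27.3 and 32.8 CPM at 0 h. The 48 h SL libraries held 3 reads in all, and the ratio of 0 h to 48 h SL was 3496 with a 95% counting interval of 1194 to 16964 (edgeR adjusted p = 2.1e-14). Its mean was already 3.36 ± 1.09 CPM at 48 h S and 0.298 ± 0.0986 at 6 h SL. ACS4 itself was at 0.268 ± 0.0829 CPM or less at every time point, far under the locus in dry seed.

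A pair of loci were concentrated at 12 h S. XLOC_005521 (chr1:7311845-7312204, 360 bases), which lay 1573 bases before the start of a gene for a U5 small nuclear ribonucleoprotein helicase (AT1G20960), had 0.255, 0.0716 and 0.381 CPM at 48 h S, against 7.27, 5.68 and 6.38 CPM at 12 h S. Its log2 fold change at 48 h S against 12 h S was -4.83 (SE 0.41, edgeR adjusted p = 6.5e-11), and its 12 h S mean was 19.3 times its next highest mean. XLOC_032532 (chr5:17524016-17524368, 353 bases) began 12 bases after the end of AT5G43620, annotated as a pre-mRNA cleavage complex II protein. It had 2.49, 1.95 and 2.47 CPM at 12 h S, against 0 in each library of 1 h S, and was at least 33.4-fold higher against a floor of 3 reads over the 1 h S libraries (edgeR adjusted p = 1.3e-06). The adjoining gene had its highest mean at the same time point, with 79.0 ± 8.98 CPM at 12 h S and 10.9 ± 4.24 CPM at 1 h S, and the correlation of their 10 time point means was 0.80.

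XLOC_030169 (chr5:323536-323802, 267 bases) had the largest rise at 48 h S against 0 h, with 1.79, 1.61 and 1.91 CPM at 48 h S, against 0 reads in all libraries of 0 h. This was at least 40.1-fold (edgeR adjusted p = 1.9e-08). The nearest gene, AT5G01830 of the ARM repeat superfamily, lay 322 bases away and followed another course, with its highest mean at 48 h SL (10.7 ± 0.667 CPM). XLOC_015581 (chr3:8758423-8758691, 269 bases), 2271 bases before the start of the ankyrin repeat gene AT3G24210, had 0 reads in all libraries of 6 h SL, against 1.24, 0.219 and 1.16 CPM at 1 h SL. It was at least 42.8-fold lower (edgeR adjusted p = 2.1e-06).

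XLOC_030028 (chr5:26415101-26415773, 673 bases) was concentrated at 1 h SL, an hour after the move to light. Its libraries had 36.6, 24.8 and 42.4 CPM at 1 h SL, against 1.85, 1.54 and 2.39 CPM at 48 h S (log2 fold change 4.17, SE 0.29, edgeR adjusted p = 4.3e-11). At 6 h SL they were back at 0.592, 0.664 and 0.687 CPM. The mean at 1 h SL was 18.0 times the next highest. The nearest gene, AT5G66052, which encodes an uncharacterized protein and starts 352 bases away, had 153 ± 29.7 CPM at 1 h SL and 155 ± 24.0 CPM at 48 h S. XLOC_007357 (chr1:22033387-22033784) had the largest rise at that step, with 0.334, 0.626 and 0.554 CPM at 1 h SL, against 0, 0.0358 and 0.0254 CPM at 48 h S. The 48 h S libraries held 3 reads, and the ratio was 24.8 with a 95% counting interval of 8.17 to 123 (edgeR adjusted p = 2.3e-06).

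XLOC_015394 (chr3:7521996-7522666, 671 bases) was among the most abundant intergenic loci and had the largest fall at 12 h SL against 6 h SL. Its libraries had 2.13, 1.34 and 2.25 CPM at 12 h SL, against 29.5, 27.1 and 40.3 CPM at 6 h SL (log2 fold change -4.13, SE 0.34, edgeR adjusted p = 1.9e-09). It was present in dry seed already (15.4 to 15.9 CPM at H) and highest at 48 h S (63.1 to 76.1 CPM), and at 48 h SL it was at 0.0810 to 0.114 CPM. RefSeq lists a misc_RNA gene, AT3G00390, over 91.2% of it. Its correlation with the nearest annotated gene over the 10 time point means was 0.92. XLOC_005428 (chr1:6718589-6718847, 259 bases) marked the later phase, with 0.591, 1.02 and 0.969 CPM at 24 h SL against 0 reads in all libraries of 12 h SL, at least 31.7-fold higher (edgeR adjusted p = 5.5e-07). The gene nearest to XLOC_005428 was also highest at 24 h SL, and the correlation over the 10 time point means was 0.97. XLOC_020134 (chr3:18166108-18166497), which lay 121 bases after the end of a gene for an RNA polymerase III subunit (AT3G49000), had the largest fall at 48 h S against 0 h, with 0.0638, 0.0895 and 0.0254 CPM at 48 h S and 1.41, 0.755 and 1.30 CPM at 0 h (log2 fold change -4.16, SE 0.50, edgeR adjusted p = 2.7e-08).

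**Figure D4:**
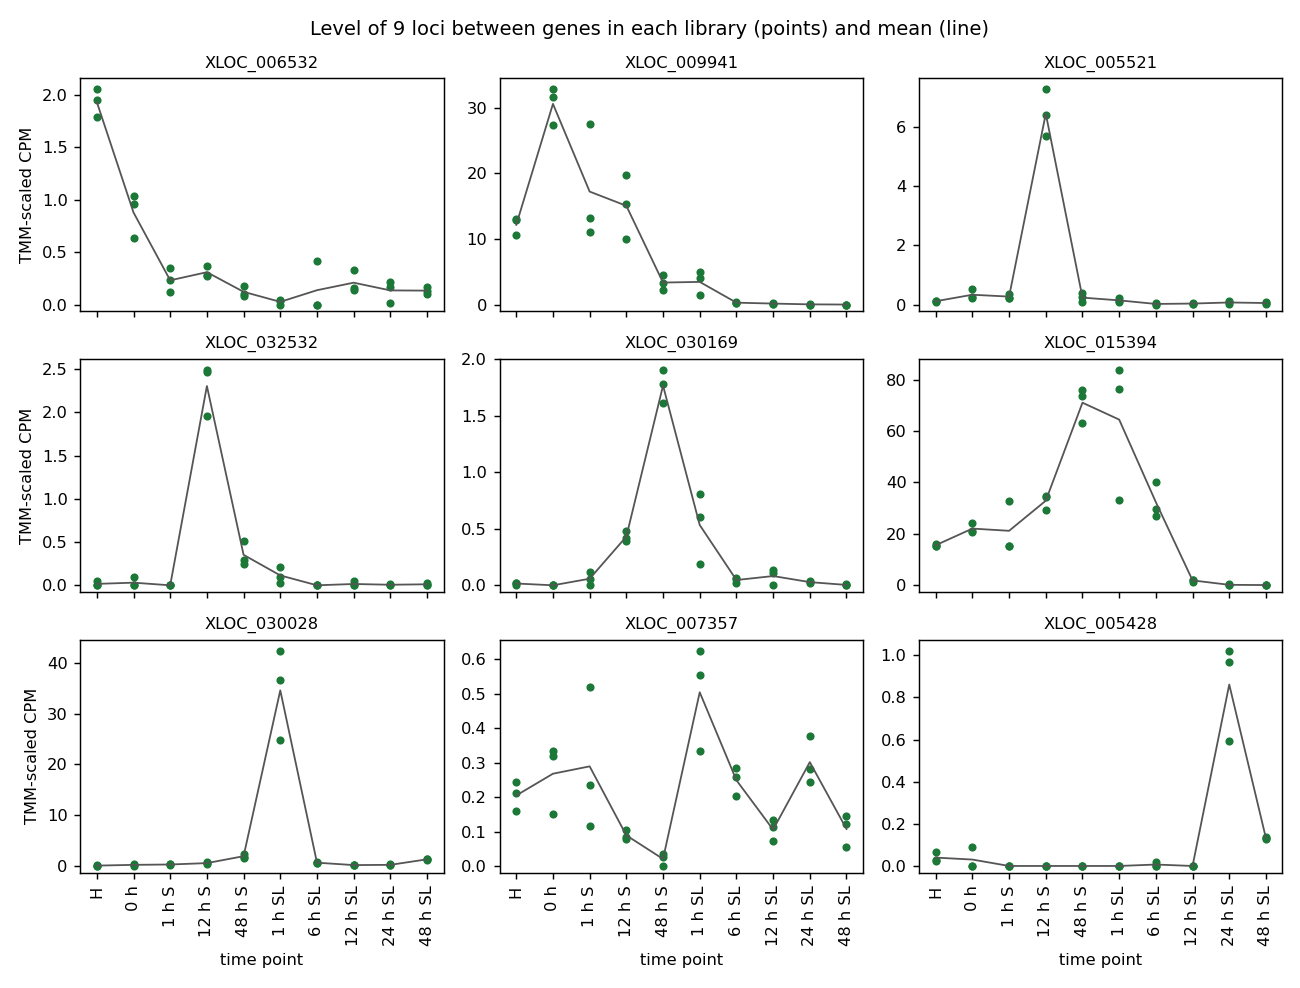
Level of 9 intergenic loci (vertical axes, TMM-scaled CPM, a scale of its own for each) at the 10 time points in each library (green points), with the mean as a line. The highest means run from H (XLOC_006532) and 0 h (XLOC_009941) through 12 h S (XLOC_005521, XLOC_032532), 48 h S (XLOC_030169, XLOC_015394) and 1 h SL (XLOC_030028, XLOC_007357) to 24 h SL (XLOC_005428).

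The loci chosen as examples in earlier work on these data numbered 6, all were intergenic, and each had a time effect. The study drew its examples from loci that it had found to differ over this same time course and to overlap no annotated gene. Both properties thus followed from that choice, and the adjusted p-values given for these loci are no independent support. XLOC_000109 (chr1:641473-642178) had 3.20, 2.88 and 2.34 CPM at 6 h SL and 0.462 ± 0.234 CPM at H (DESeq2 adjusted p = 8.3e-19). XLOC_022087 (chr4:8157118-8157805), 142 bases before the start of ARPC4, a gene of the actin-nucleating ARP2/3 complex, had 3.69, 2.93 and 2.54 CPM at 6 h SL (adjusted p = 4.8e-48). XLOC_008508 (chr1:29841551-29842181), 405 bases before the start of the metacaspase gene MC4 (AT1G79340), was highest late, with 0.369, 0.377 and 0.504 CPM at 48 h SL and 0 reads at 1 h S (adjusted p = 1.4e-16). It followed MC4 with a correlation of 0.95 over the 10 time point means. XLOC_033818 (chr5:26337078-26337544) and XLOC_020104 (chr3:17928617-17929007) were both highest at 1 h SL, at 0.699 ± 0.126 and 0.313 ± 0.122 CPM (adjusted p = 3.7e-14 and 2.8e-14). XLOC_008600 (chr2:9895-10135) lay near the end of chromosome 2 and wholly in a RefSeq misc_RNA exon, and had the largest fall at 12 h S against 1 h S, with 0.545, 0.555 and 0.502 CPM at 12 h S and 1.56, 1.29 and 3.19 CPM at 1 h S (log2 fold change -1.96, SE 0.36, edgeR adjusted p = 6.7e-05).

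Loci over genes gave the remaining extremes. XLOC_006578 (chr1:16416188-16417682), all of it in exons of AT1G43605 (an uncharacterized protein) and a pair of neighbouring transcripts, was the locus most particular to seedlings, with 9.15, 6.46 and 6.97 CPM at 48 h SL against a mean of 0.246 ± 0.0660 CPM at 24 h SL. Against 48 h S, where a single read was counted, the ratio was 1069 with a 95% counting interval of 192 to 42247 (edgeR adjusted p = 2.0e-13). XLOC_019966 (chr3:16968390-16969075), 95.2% in exons of the nudix hydrolase gene NUDT9 (AT3G46200), had 1.30, 1.30 and 1.16 CPM at 48 h SL and 0 reads at 24 h SL, at least 112-fold (adjusted p = 9.4e-09). XLOC_003536 (chr1:24720930-24721756) had 2.20, 2.15 and 1.92 CPM at 48 h SL and 0 reads at 0 h, at least 47.7-fold (adjusted p = 1.6e-07). XLOC_013649 (chr2:16052623-16052960), largely in a non-coding RNA gene (AT2G08950), had the largest fall at 48 h SL against 24 h SL, with 0.351, 0.311 and 0.382 CPM at 48 h SL and 9.36, 21.2 and 11.4 CPM at 24 h SL (log2 fold change -5.31, SE 0.41, adjusted p = 2.8e-11).

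At the other steps, XLOC_014786 rose at 0 h against H (log2 fold change 2.10, SE 0.37) and had 95.9, 87.5 and 86.8 CPM by 6 h SL, XLOC_015990 in AT3G30305 rose at 6 h SL against 1 h SL (5.53, SE 0.44), and XLOC_032496 in AT5G06475 rose at 12 h SL against 6 h SL (3.69, SE 0.41). XLOC_005889, in the non-coding RNA gene AT1G06117, was most particular to 6 h SL, at 3.29 ± 0.191 CPM, and XLOC_032912, partly in the SABRE-like gene AT5G49680, to 0 h, at 5.83 ± 1.23 CPM. XLOC_024179, inside AT4G06748, was most particular to 1 h S, at 4.47 ± 1.16 CPM. XLOC_006152, partly in AT1G06607, was most particular to 48 h S, at 0.739 ± 0.254 CPM, and its fall at 1 h SL (log2 fold change -2.17, SE 0.47, edgeR adjusted p = 0.0025) was no longer called without 48 h S replicate 3 or without 1 h SL replicate 2 (log2 fold change -1.87 and -1.71). XLOC_017103 over AT3G55160 fell at 0 h against H (-1.09, SE 0.24, adjusted p = 0.0029), a call lost without H replicate 1, H replicate 2, 0 h replicate 2 or 0 h replicate 3, although the log2 fold change was then -1.06, -1.06, -0.9996 and -1.05. For 1 h S against 0 h, the log2 fold change of XLOC_014275 over RGP1, a gene of cell wall polysaccharide synthesis, was 1.26 (edgeR adjusted p = 0.0067) and was 0.54 without 1 h S replicate 2, in which the photosynthesis genes were highest. Neither this rise nor the fall of XLOC_023101 in AT4G30790 (-0.83, adjusted p = 0.0082) was called without that library or without any 1 of the 0 h libraries. The log2 fold change of XLOC_023101 was then -0.68 without 1 h S replicate 2 and -0.82, -0.81 and -0.82 without 0 h replicates 1, 2 and 3.

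The locus with the highest level of all intergenic loci rested on a single library. XLOC_016232 (chr3:14192867-14194339, 1473 bases) had 4.51, 135 and 3092 CPM in replicates 1, 2 and 3 of 12 h SL, and its mean without replicate 3 was 69.8 CPM. In the other time points its libraries ranged from 1.16 to 192 CPM and replicates of a time point often differed by several fold. Part of it matched, at 92.5% of residues, the frame annotated at AT2G01023, and the genome held 1 other copy at 90% identity or more over at least 80% of its length. In 12 h SL replicate 3 intergenic loci took 0.405% of the reads with XLOC_016232, and 0.0167% without it. It is one of 3 intergenic loci that were called higher at 12 h SL against 6 h SL, beside XLOC_008758 and XLOC_024011, and the only one of them whose libraries overlapped between the time points.

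Other abundant intergenic loci, singled out after their levels were seen, had smoother courses. XLOC_021232 (chr4:1476303-1476752) had a mean of 5.35 ± 0.419 CPM at H, 99.7 ± 31.6 at 48 h S and 124 ± 89.8 at 1 h SL, where replicate 2 had 33.2 CPM, and 99.6% of it lay in the RefSeq misc_RNA gene AT4G04595. Part of its translation matched, at 66.7% of residues, a frame annotated at AT4G02970, a gene named 7SL RNA1 after the RNA of the signal recognition particle. XLOC_012570 (chr2:8804500-8804801) was a locus of dry seed, with 74.2 ± 11.6 CPM at 0 h, 6.97 ± 2.34 at 48 h S and 0.829 ± 0.889 at 48 h SL. XLOC_031578 (chr5:10018901-10019717), with no RefSeq exon, was highest at 12 h SL, at 24.6 ± 7.16 CPM, beside 0.320 ± 0.0654 CPM at H.

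Profiles of intergenic loci were compared with those of the nearest gene by Pearson correlation of log2(CPM + 0.5) averaged within the 10 time points, where both had a time effect. The points share libraries and the development of the seed, and the values are descriptions. For loci over or inside genes the median correlation was 0.99 (n = 137) and 0.98 (n = 77), in which shared reads take part. For 128 intergenic loci the median was 0.39, with 30 at 0.8 or more and 39 below 0, and the values spread over nearly the whole range. Named loci were not all close to their gene. Values not given above were -0.66 for XLOC_020134, -0.34 for XLOC_030169, -0.13 for XLOC_000109 and -0.09 for XLOC_015581. They were 0.09 for XLOC_033818, 0.11 for XLOC_005521, 0.12 for XLOC_020104 and 0.18 for XLOC_016232. Higher values were 0.62 for XLOC_030028, 0.79 for XLOC_009941 and XLOC_022087 and 0.87 for XLOC_007357. Pairs of neighbouring annotated genes that do not overlap had a median of 0.18 (12477 pairs), with 15.2% at 0.8 or more, against 23.4% of the intergenic loci. Loci before the start of the nearest gene had a median of 0.62 (n = 57) and loci after its end 0.23 (n = 71). The shares at 0.8 or more were 26.3% and 21.1%. With a correlation of ranks, in which tied means were given distinct ranks in an arbitrary order, the medians were 0.59 and 0.32. The shares were then in the other order, 14.0% and 19.7%, and how far ties set this order was not tested. By distance, the Pearson median was 0.42 under 200 bases (n = 40), 0.23 at 200 to 499 bases (n = 45) and 0.64 at 500 bases or more (n = 43), so nearer loci did not have the higher values.

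**Figure D5:**
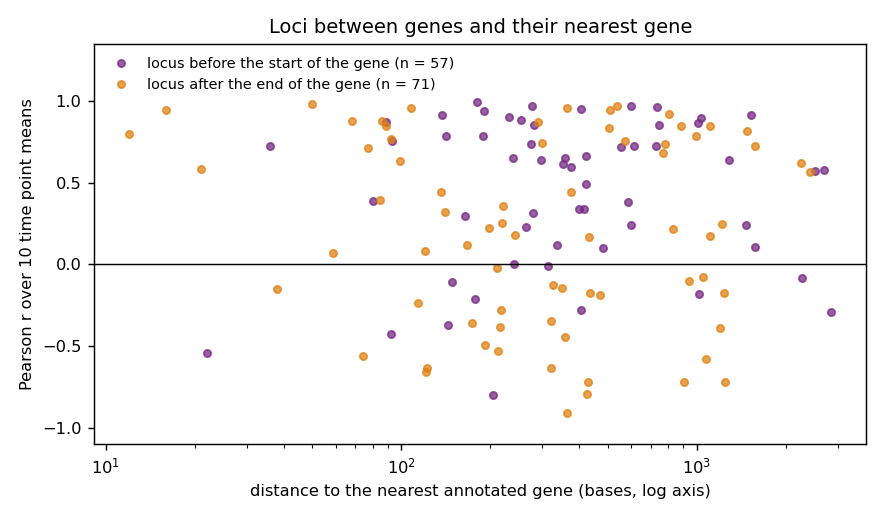
Pearson correlation (vertical axis) of each of 128 intergenic loci with its nearest annotated gene over 10 time point means, by distance in bases (horizontal log axis), for loci before the start of the gene (purple, n = 57) and after its end (orange, n = 71). Values spread over both signs at every distance, and 30 of 128 were at 0.8 or more.

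Organelle loci formed a small set of their own. Of 19 intergenic mitochondrial loci, 10 had a time effect, and 6 of these were highest at H, 1 at 0 h and 3 at 12 h S, with none at 48 h S. With library sizes alone 4 were highest at H, none at 0 h, 3 at 12 h S and 3 at 12 h SL. XLOC_034207 (936 bases, partly over ATMG00630) had the largest fall at 24 h SL against 12 h SL, with 0.00910, 0 and 0.0470 CPM at 24 h SL and 0.249, 0.267 and 1.99 CPM at 12 h SL, so that replicate 3 of 12 h SL set much of the mean. Of the 3 chloroplast loci only XLOC_034027 had a time effect, with its highest mean of 2.45 CPM at 12 h SL. On the nuclear chromosomes alone, 50 of 140 intergenic loci with a time effect (35.7%) were highest at 48 h S.

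The intergenic loci had a median GC content of 36.4% (23.3% to 55.1%, n = 162, of which 3 were in the chloroplast genome). It was 36.0% over the nuclear chromosomes as a whole, and the median was 37.5% in 240 measured loci that overlap a gene. The sequence around the intergenic loci was not measured. Their longest open reading frame had a median of 41 codons, and in 2 of 162 it reached 100 codons (XLOC_014071 and XLOC_016232), against a median of 68.5 codons and 74 of 240 in loci that overlap a gene, which are longer and contain coding exons. A translated search against the annotated proteins gave a match for 32 intergenic loci (E of 1e-05 or less). Among them were 3 matches to proteins related to reverse transcriptase, which mark retroelements, and a match of XLOC_032532 to an F-box protein gene (AT1G66490) at 84.6% of residues. A copy elsewhere in the genome, at 90% identity or more over at least 80% of the length, was found for 23 of the 162, and XLOC_021454 had 125 of them. Reads of such loci can belong to a copy, since how multiply mapped reads were handled is not given in the sources used here.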

How the data were processed

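RNA-seq of 30 libraries was analysed from the table of counts per gene that the authors deposited, with whole-number read counts for annotated genes and assembled loci. Per the study's methods and the submitters' processing notes, the authors trimmed reads with Trim Galore 0.4.2, aligned them to TAIR10 with HISAT2 2.0.5, added loci assembled with Cufflinks to the Araport11 annotation and counted with featureCounts 1.5.1. All reads counted at a base are pooled over strands, and genes and loci that overlap share them. The transcript-level files were not used here.

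Positions were taken from the table, and overlap means at least 1 shared base between the span of a locus and that of an annotated gene, on either strand. CPM is the count divided by the library total times its TMM factor, times 1e+06, and means ± SD are over 3 libraries. The time effect was tested with the likelihood ratio test of DESeq2 1.42.0 (10 time points against an intercept). The 12 pairs of time points were compared with the quasi-likelihood test of edgeR 4.0.16 in 1 fit of all libraries, after filterByExpr with a minimum count of 10. P-values were Benjamini-Hochberg adjusted over all features at a threshold of 0.01, and they measure the spread between these libraries. Fold bounds set a floor of 3 reads over a time point with 0 reads, and intervals are exact 95% intervals that cover counting error only. Standard errors of edgeR fold changes were derived from the test statistic.

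The loci named were the 10 with the highest mean level, the largest called rise and fall of each comparison (at least 10 reads in every library of the higher time point and no overlap), the locus with the largest ratio of its highest to its next highest mean for each time point (at least 20 reads in every library), the 6 examples of the study and the 3 longest. Others were named after their values were seen, and 1 locus and the gene beside another are not reported here. The members and lists were chosen with earlier results of these data known. RefSeq annotation and sequence came from TAIR10.1, whose locus tags matched 99.2% of the genes in the table. Mitochondrial loci were left out of sequence work, since that RefSeq sequence differs. Frames were read from ATG to a stop on both strands, and searches used BLAST 2.17.0. Scripts were tested on simulated data, and shares of highest means were recomputed with library sizes alone and with DESeq2 size factors. Same-numbered replicates were checked for pairing, which was not used in the main fits, as given under the dependence on processing.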

Additional observations from a re-analysis of the deposited data

How the results depend on the processing

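The count of loci with a time effect was 378, and 366 to 377 with TMM size factors, filtered features or the edgeR F-test. The correlation of deviations between libraries with the same replicate number had a median of 0.02 over 135 pairs, and 21 of these pairs exceeded 0.1. Yet 19 of 30 libraries correlated best with their own number, so a weak pairing remains possible. The numbers were not taken as pairing in the main fits, and with the replicate number as a block the count was 373. Leaving out 1 library gave 369 to 378 loci with a time effect. Across comparisons, leaving out 1 library gave 7 to 12 calls at 0 h against H, 0 to 10 at 1 h S against 0 h, 69 to 86 at 12 h S against 1 h S, 169 to 181 at 48 h S against 12 h S, 7 to 16 at 1 h SL against 48 h S, 100 to 154 at 6 h SL against 1 h SL, 53 to 71 at 12 h SL against 6 h SL, 122 to 173 at 24 h SL against 12 h SL and 97 to 120 at 48 h SL against 24 h SL. Over the longer intervals it gave 213 to 226 at 48 h S against 0 h, 319 to 324 at 48 h SL against 48 h S and 212 to 227 at 48 h SL against 0 h, and 74 to 114 loci had their highest mean at 48 h S. With the 6 libraries of a comparison fitted alone, fewer features were tested. Calls were then 94 of 183 loci at 0 h against H (9687 of 17729 features) and 0 of 162 at 1 h S against 0 h (0 of 17237). They were 42 of 208 at 12 h S against 1 h S (2960 of 17904), 2 of 292 at 1 h SL against 48 h S (275 of 18894) and 69 of 279 at 6 h SL against 1 h SL (4944 of 19258). Of these calls 21, 0, 21, 2 and 31 were intergenic, of 51, 42, 62, 111 and 96 intergenic loci tested. The 4 calls at 1 h S against 0 h became 1 with library sizes alone, 12 with the DESeq2 Wald test and, by an alternative chosen after seeing the data, 0 without 12 h SL replicate 3 and 1 h S replicate 2 (33 at 0 h against H). In the main fit of 1 h S against 0 h, 48 of 375 loci tested had an unadjusted p below 0.05, a share not computed over all features. Rows without an exon in RefSeq were 248 of 844, where 390 rows lay between genes of the table. Restricted to intergenic loci, 168 of the 409 detected loci remained, 50 of the 101 with the highest mean at 48 h S, and the median correlation with the nearest gene was 0.39, against 0.89 over all 342 pairs. Of 1315 values of 52 results on named loci under the alternatives, 1292 kept their call, none changed direction, and 23 lost it, in XLOC_017103, XLOC_014275, XLOC_023101 and XLOC_006152. Loci with few reads limit the depth of these statements, since only 140 of the 181 intergenic loci had 100 reads or more over all libraries.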
